A study of Schizosaccharomyces pombe with 50 samples.

Results

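Of 6613 ORF windows in the deposited tables, 611 (9.24%) belong to antisense non-coding RNA genes, whose systematic identifier begins with SPNCRNA and whose name places "antisense" after the name of a sense gene. The choice was made by annotation alone. The tables hold 1282 windows of SPNCRNA genes in all, and the other 671 carry no sense gene in their name. ChIP-seq with 8 antibodies was done on vegetative (V) and quiescent (Q) cells of fission yeast, Schizosaccharomyces pombe. All libraries came from one strain, Hu3112, with the genotype mat1-M smt-0 pht1-myc. V and Q cells therefore shared the Myc-tagged H2A.Z (Pht1), and the H2A.Z libraries were made through that tag. V cells grew to mid-log phase at 30 °C in PMG, a minimal medium with glutamate, and Q cells then spent 24 h in the same medium without nitrogen. Each antibody had 3 libraries per cell state, 48 in all. The 2 input libraries were not used here.

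Antisense RNAs are transcribed from the strand opposite to a gene, so that both transcripts lie over the same stretch of DNA. In fission yeast most are kept scarce by the nuclear exosome, by RNA interference, and by Set2 together with the Clr6 histone deacetylase, and H2A.Z acts with these pathways on read-through antisense RNA. Some antisense RNAs accumulate in meiosis or starvation. RNA Pol II phosphorylated at serine 5 (S5) marks early transcription, serine 2 (S2) marks elongation, and H3K4me3 is laid down by the Set1 complex near transcription starts. ChIP reads carry no transcript strand, so over shared DNA the antisense and the sense gene read the same signal and cannot be told apart.

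The sequences from 250 bases before to 50 bases after the annotated start of 6 antisense RNAs are shown as examples of members whose values are described in full here. They are RefSeq sequences of assembly ASM294v3, read 5′ to 3′ on the strand of the antisense RNA. Capitals mark matches on either strand to the TATA box TATAAA, the CRE core TGACGT, the GATA site GATAAG, the forkhead site GTAAACA, the TR box TTCTTTGTT and the CCAAT box. No motif is contained in another, and the search allowed matches to share bases. The first 5 are among the 6 RNAs with the largest RNA Pol II S5 increase in Q cells, and the last one had the largest H3K4me3 decrease.
grt1-antisense-1, chrII:49860-50159, plus strand: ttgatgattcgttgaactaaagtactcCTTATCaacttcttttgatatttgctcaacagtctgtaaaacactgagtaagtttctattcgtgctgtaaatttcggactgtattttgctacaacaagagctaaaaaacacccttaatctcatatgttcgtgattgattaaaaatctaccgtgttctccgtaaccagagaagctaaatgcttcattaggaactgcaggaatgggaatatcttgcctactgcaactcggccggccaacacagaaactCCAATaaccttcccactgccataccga
SPCC191.10-antisense-1, chrIII:1722827-1723126, minus strand: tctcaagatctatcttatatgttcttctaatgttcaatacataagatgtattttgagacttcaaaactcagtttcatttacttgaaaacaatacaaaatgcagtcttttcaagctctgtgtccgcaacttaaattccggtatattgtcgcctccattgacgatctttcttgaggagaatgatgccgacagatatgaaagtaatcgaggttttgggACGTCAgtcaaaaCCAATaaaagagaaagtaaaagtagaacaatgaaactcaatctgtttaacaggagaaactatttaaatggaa
isp3-antisense-1, chrI:96476-96775, minus strand: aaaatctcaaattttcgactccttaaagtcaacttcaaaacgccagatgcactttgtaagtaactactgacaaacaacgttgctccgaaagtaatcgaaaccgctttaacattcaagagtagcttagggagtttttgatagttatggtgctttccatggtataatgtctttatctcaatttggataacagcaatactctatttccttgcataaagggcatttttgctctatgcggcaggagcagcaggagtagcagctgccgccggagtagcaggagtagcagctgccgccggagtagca
mug147-antisense-1, chrII:4103913-4104212, plus strand: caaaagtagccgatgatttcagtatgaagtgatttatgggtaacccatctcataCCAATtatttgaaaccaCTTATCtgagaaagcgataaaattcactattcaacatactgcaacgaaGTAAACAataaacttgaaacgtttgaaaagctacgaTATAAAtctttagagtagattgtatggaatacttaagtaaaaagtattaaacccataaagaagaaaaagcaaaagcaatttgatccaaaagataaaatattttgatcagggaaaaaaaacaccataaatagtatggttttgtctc
eno102-antisense-1, chrII:58203-58502, plus strand: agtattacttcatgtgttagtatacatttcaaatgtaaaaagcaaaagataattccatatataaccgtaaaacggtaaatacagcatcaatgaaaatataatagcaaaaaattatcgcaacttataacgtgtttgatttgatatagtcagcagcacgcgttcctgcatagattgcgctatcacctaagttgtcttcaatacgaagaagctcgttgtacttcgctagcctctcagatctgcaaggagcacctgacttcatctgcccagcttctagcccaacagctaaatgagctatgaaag
mhf1-antisense-1, chrII:2997110-2997409, minus strand: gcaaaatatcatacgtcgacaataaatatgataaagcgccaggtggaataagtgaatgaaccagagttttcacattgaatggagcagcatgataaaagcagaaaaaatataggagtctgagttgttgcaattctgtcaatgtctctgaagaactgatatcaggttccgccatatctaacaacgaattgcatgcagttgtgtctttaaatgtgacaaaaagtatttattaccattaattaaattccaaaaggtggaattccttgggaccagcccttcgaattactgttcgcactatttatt

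The grt1 antisense sequence held GATAAG on the opposite strand at -223 and CCAAT at 24, counted from the annotated start. That of SPCC191.10 held TGACGT on the opposite strand at -35 and CCAAT at -22. The mug147 sequence held CCAAT at -196, GATAAG on the opposite strand at -179, GTAAACA at -131 and TATAAA at -95. The isp3, eno102 and mhf1 sequences held none of the 6 motifs. Over 610 antisense RNAs with such a sequence, 42.6% held TATAAA and 44.3% held CCAAT, against 47.6% and 42.2% of all 6521 promoters of the same length. TGACGT was in 8.03% against 6.21%, GATAAG in 12.1% against 11.5%, GTAAACA in 13.1% against 15.9% and TTCTTTGTT in 2.13% against 2.04%. A match is a description of letters, not of a bound site.

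By annotation, 284 antisense RNAs lay on chromosome I, 224 on chromosome II and 103 on chromosome III, with 294 on the plus and 316 on the minus strand. Their ORF windows, which run 200 bp past each annotated end, had a median length of 1856 bp (605 to 5383 bp). A window for the sense gene was found for 599 of them, with 596 distinct sense windows, of which 592 were protein-coding. For the other 12, no sense window was used. The antisense window lay wholly inside the sense window in 94 pairs. In 472 others the windows overlapped, which includes any pair with the sense window inside the antisense window. In 33 they did not overlap. All 33 of the last kind had a sense gene with several exons, whose deposited window ends 200 bp past a single exon. The annotated antisense RNA ran past the 5′ end of its sense gene in 258 cases, past the 3′ end in 94, past both ends in 117, and lay within the gene in 124.

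Depth in ORF windows ranged from 856936 to 20673131 reads per library, with a median of 7441339. Some libraries stood apart. In Q replicate 1, 7 antibodies gave nearly the same order of antisense windows, with a mean Spearman rho of 0.954 (0.886 to 0.982 over 21 pairs of antibodies). In the other 5 sets of same-numbered libraries this mean was 0.095 to 0.240. The H3K9ac Q replicate 1 library was inversely related to Q replicates 2 and 3 over the antisense windows (rho -0.455 and -0.415), and that of H2A.Z was nearly unrelated to them (rho -0.145 and -0.089). For H3K4me3, rho was 0.479 between Q replicates 1 and 3, 0.823 between 1 and 2 and 0.832 between 2 and 3. The H3K4me3 V libraries had 0.969 to 0.992 with each other. Whether the Q replicate 1 libraries hold a separate enrichment for each antibody was not tested, so a Q group may hold fewer than 3 independent measurements of its antibody. Q replicates 2 and 3 of S5 and of S2 differed by less than sampling noise, with a chi-square per degree of freedom of 0.876 and 0.980, so they were counted as 1 sample in every mean ± SD. Counts that changed without a replicate are given with the result. Of 610 antisense RNAs with a sequence, 579 held no stretch of 50 bases that recurs elsewhere in the genome.

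In V cells, antisense windows held about as much H3K4me3 per kilobase as their sense windows, with which they mostly share DNA and reads. The median normalised read count per kb was 412 ± 9.64 (SD, n = 3) for antisense windows, 405 ± 7.33 (SD, n = 3) for sense windows and 448 ± 7.32 (SD, n = 3) for all protein-coding windows. The other non-coding RNAs were lower, at 275 ± 9.24 (SD, n = 3). In Q cells the antisense median was 403 ± 9.61 (SD, n = 3), so the medians of the 2 states differed by less than 1 SD. Over the 33 pairs without overlap, the median log2 ratio of antisense to sense H3K4me3 was -0.751 in V and 0.117 in Q cells. It is taken per kb, and the sense windows of these pairs cover a single end of their gene. H2A.Z on antisense windows in V cells was 833 ± 27.0 (SD, n = 3) against 727 ± 1.53 (SD, n = 3) for protein-coding windows. In Q cells it was 739 ± 16.3 (SD, n = 3), close to the 752 ± 9.24 (SD, n = 3) of protein-coding windows, and the 3 V libraries (802 to 851) did not overlap the 3 Q libraries (720 to 751). The sense windows, which mostly share this DNA, were higher still in V cells, at 866 ± 33.8 (SD, n = 3), and had 746 ± 15.5 (SD, n = 3) in Q cells. S5 stood at 535 ± 5.89 (SD, n = 3) in V cells and 564 ± 1.29 (SD, n = 2) in Q cells, below the 590 ± 14.4 (SD, n = 3) of protein-coding windows in V cells.

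**Figure D1:**
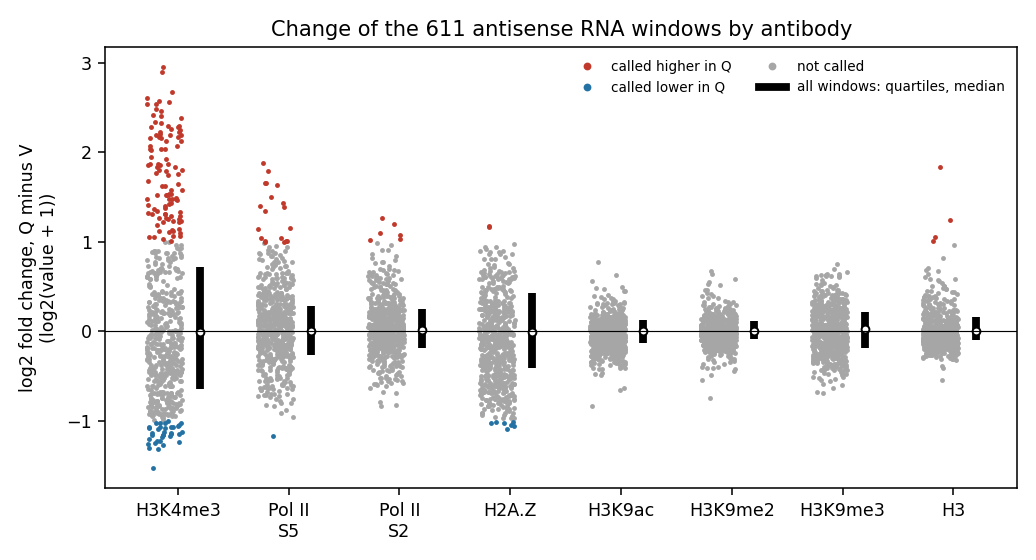
Log2 fold change (Q minus V) of each of the 611 antisense windows (points, coloured by call) for the 8 antibodies, with the quartiles (black bar) and median (circle) of all windows beside them. H3K4me3 spreads most widely, with antisense values from -1.53 to 2.95 around a median of -0.08.

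H3K4me3 changed on more antisense windows than any other mark tested. It rose in Q cells on 106 of 611 windows (17.3%) and fell on 35 (5.73%), where 19.4% of all 6576 windows tested rose and 13.8% fell. The share that rose was thus near the background and the share that fell was below it. Other non-coding RNA windows rose more often, with 225 of 670 (33.6%), and protein-coding windows rose in 15.7% and fell in 16.5% of 5022. The antisense median was -0.08 on the log2 scale (all windows -0.01), with quartiles at -0.54 and 0.65. A window was called when the adjusted p was under 0.05 and the log2 fold change of value + 1 went beyond 1 in either direction, which understates changes of low windows. All 141 called windows had V and Q libraries that did not overlap, but so did 528 of all 611. The share over all tested windows is not given here, so nothing is read from these counts about antisense windows. The 106 and the 141 include the cox1101 antisense window, which passed the filter on low values only through its Q libraries.

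The antisense RNA of grt1, which encodes a zinc finger transcription factor, had the largest H3K4me3 increase. Its normalised read counts were 208, 115 and 87.8 in the V libraries and 1194, 1013 and 823 in the Q libraries. Every Q library was far above every V library, and V replicate 1 was the highest of the V libraries. The log2 fold change was 2.95 ± 0.17 (SE, limma adjusted p = 0.000495), or 7.74-fold. The sense window of grt1 rose as well, by 2.84 on the log2 scale.

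Opposite trk2, a potassium transporter gene, the antisense RNA read 168, 72.9 and 63.1 in V and 705, 591 and 504 in Q libraries. The groups did not overlap, and the change was 2.68 ± 0.23 (SE, adjusted p = 0.000642), with the sense window up by 2.92. The alanine racemase genes alr1 and alr2 both had antisense RNAs that gained H3K4me3. The alr1 antisense window read 208, 76.5 and 96.3 in V and 828, 714 and 600.4 in Q libraries. That is a change of 2.61 ± 0.25 (SE, adjusted p = 0.000738), while the alr1 sense window had 0.98 and was not called. The alr2 antisense window went from 232, 98.1 and 81.8 to 851, 699.7 and 670.0. It rose by 2.57 ± 0.25 (SE, adjusted p = 0.000756), and its sense window rose by 2.61.

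SPBC713.13-antisense-1, for which no sense window was found, read 232, 73.8 and 116 in V and 754, 729 and 786 in Q libraries. Its groups did not overlap and it rose by 2.58 ± 0.31 (SE, adjusted p = 0.00127). H3 rose there too, by 1.01, and relative to H3 the H3K4me3 change was 1.57. H3K4me3 on the antisense RNA of cox1101, a gene for a mitochondrial protein that joins a cytochrome oxidase assembly factor to a ribosomal protein, had a fitted change of 2.90 ± 0.87 (SE) from very low values. It read 0, 3.60 and 6.82 in V and 26.9, 23.7 and 20.9 in Q libraries. It passed the filter on low values only through its Q libraries, so that it had to differ, and it is given as a description with no test. Of its 50-base stretches, 97.5% recur elsewhere in the genome, so its reads cannot be assigned with certainty.

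The largest decrease was on the antisense RNA of mhf1, which encodes a histone-fold subunit of a DNA repair and kinetochore complex. It read 880.1, 944 and 996 in V and 279, 308 and 395 in Q libraries. The V values lay close together and far above the Q values, with a change of -1.53 ± 0.10 (SE, adjusted p = 0.000495). Its sense window fell too, with -1.12. The next 5 decreases were on the antisense RNAs of mrps17 (-1.32), SPAC31G5.21 (-1.31), ucp3 (-1.27), tif211 (-1.26) and pfd1 (-1.25). Their sense genes include a mitochondrial ribosomal protein (mrps17), the alpha subunit of translation initiation factor eIF2 (tif211) and a subunit of the prefoldin chaperone (pfd1). The sense windows of SPAC31G5.21, ucp3, tif211 and pfd1 fell too, between -1.45 and -1.12, and that of mrps17 had -0.98 and was not called.

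V replicate 1 was the highest of the V libraries on 102 of the 106 windows with more H3K4me3 in Q cells, by a median factor of 1.64 over the mean of the other V libraries, and on 12 of the 35 with less. Its part in the result was not tested, but without replicate 1 the counts were 109 up and 24 down, and 105 of the 106 were among the 109. Relative to the change of H3 in the same windows, 96 of the 106 and 31 of the 35 were still called. The increases were spread over the chromosomes, with 18.0% of antisense windows on chromosome I, 16.1% on II and 18.4% on III.

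RNA Pol II S5 rose on 19 antisense windows (3.11%) and fell on 1 (0.164%), against 5.17% and 0.714% of all 6580 windows tested. Other non-coding RNA windows rose more often, with 103 of 671 (15.4%). The antisense median was 0.07 on the log2 scale (all windows 0.00). Of the 19, 14 also gained H3K4me3, and V replicate 1 was the highest V library for H3K4me3 on 17 of the 19. How often all windows that gained S5 also gained H3K4me3 is not given here. S2 rose on 6 antisense windows (0.982%, background 1.44%), and these 6 gained S5 and H3K4me3 as well. They were the antisense RNAs of SPCC191.10, SPCC569.02c, eno102, grt1, isp3 and mug147. S2 fell on 0 antisense windows by limma, edgeR and DESeq2, where 0.0912% of all windows fell.

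For S5, the grt1 antisense window again came first. It read 656, 358 and 299 in V and 1797, 1394 and 1398 in Q libraries. All Q libraries were above all V libraries, and the change was 1.88 ± 0.16 (SE, adjusted p = 0.00429), or 3.67-fold. Its sense window rose by 1.90. S2 on the same antisense window read 1123, 893 and 488 in V and 2065, 1859 and 1767 in Q libraries, a change of 1.26 ± 0.18 (SE, adjusted p = 0.0145).

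SPCC191.10-antisense-1 read 563, 273 and 226 for S5 in V and 1212, 1119 and 1074 in Q libraries, with no overlap. Its S5 rose by 1.79 ± 0.23 (SE, adjusted p = 0.00591), and its H3K4me3 rose by 2.42. The antisense RNA of isp3, the gene of a structural protein of the spore wall, read 575, 287 and 300.3 in V and 1324, 1125 and 1058 in Q libraries. The S5 change was 1.66 ± 0.16 (SE, adjusted p = 0.00432), the S2 change 1.20 ± 0.17 (SE, adjusted p = 0.0141) and the H3K4me3 change 2.20. The isp3 sense window, which overlaps 54.6% of the isp3-antisense-1 window, gained S5 by 1.44.

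Opposite mug147, a gene whose transcript rises in meiosis, the antisense RNA read 646, 379 and 355 for S5 in V and 1310, 1456 and 1361 in Q libraries. It rose by 1.63 ± 0.20 (SE, adjusted p = 0.00558), and S2 rose by 1.09 ± 0.16 (SE, adjusted p = 0.0148). The antisense RNA of eno102, one of the enolase genes of glycolysis, read 515, 271 and 277 in V and 985, 936 and 965 in Q libraries. Its S5 change was 1.50 ± 0.19 (SE, adjusted p = 0.00586), beside 1.55 on the sense window. SPAC869.09-antisense-1 read 374, 180.1 and 153 in V and 719.9, 676 and 672 in Q libraries, a change of 1.66 ± 0.25 (SE, adjusted p = 0.00771). In all 3 the groups did not overlap.

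**Figure D2:**
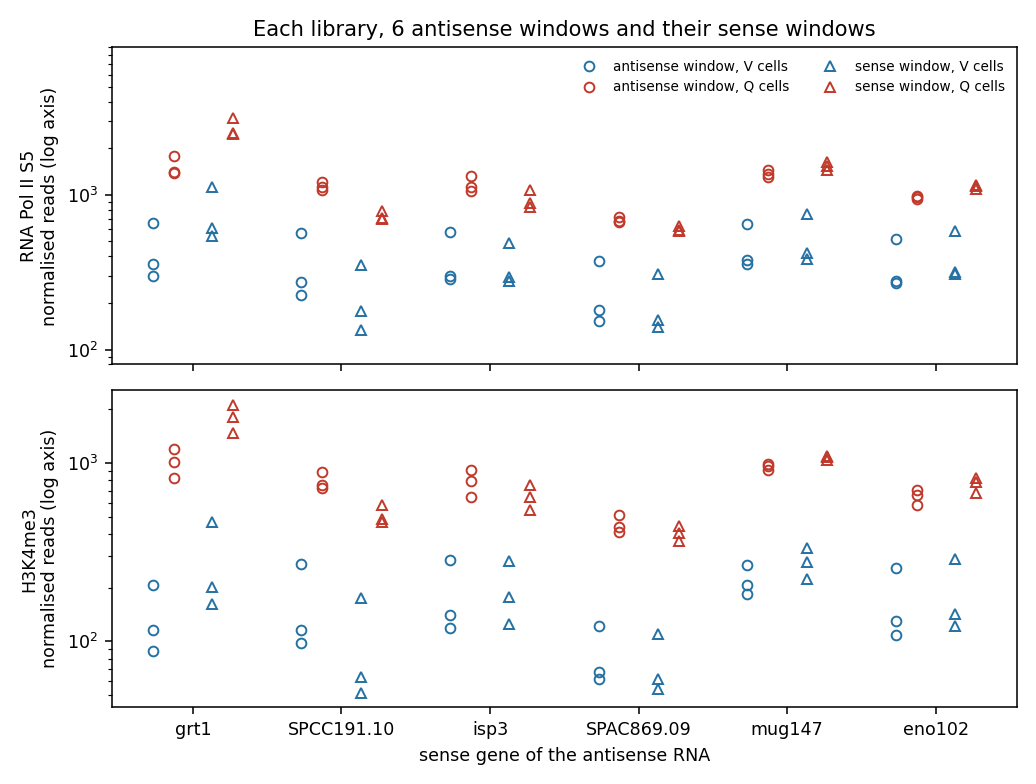
Normalised read counts per library (log axis) of the 6 antisense windows with the largest S5 increase and of their sense windows, for S5 (top) and H3K4me3 (bottom). For each window the 3 Q libraries (red) lie above the 3 V libraries (blue), in antisense (circles) and sense windows (triangles) alike.

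The remaining 13 S5 increases were between 1.00 and 1.44. They include the antisense RNAs of rem1, a meiotic cyclin gene, mfc1, a copper transporter gene of sporulating cells, meu10, a spore wall gene, and gal1, the galactokinase gene, which are named here after their values were seen. In 13 of the 19, the S5 of the sense window rose too. The single decrease was on the antisense RNA of tef102, an elongation factor EF1-alpha gene. It read 628, 587 and 644 in V and 242, 289 and 296 in Q libraries, a change of -1.17 ± 0.10 (SE, adjusted p = 0.00429). Of its 50-base stretches, 55.2% recur elsewhere, so its reads may come from other EF1-alpha genes.

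V replicate 1 was the highest of the V libraries on all 19 windows that gained S5, by a median factor of 1.75, and its part in the result was not tested. Without replicate 1 the count was 29, including all 19, without replicate 3 it was 13, and relative to H3 10 of the 19 were called. With Q replicates 2 and 3 merged into 1 library it was 18, with 17 of the 19 among them. The H3 change on these 19 had a median of 0.17 (-0.20 to 1.24). The S2 increases were less stable, with 13 calls without replicate 1, 0 without replicate 3, 0 after merging the like Q libraries (replicates 2 and 3) and 0 relative to H3.

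H2A.Z rose on 2 antisense windows and fell on 7, against 1.17% and 1.47% of all 6578 windows tested. The antisense median was -0.16, while all windows had -0.01 and protein-coding windows 0.03. The sense windows of the pairs (-0.22) and the other non-coding RNAs (-0.15) had medians on the same side. The antisense RNA of dal1 read 939, 1138 and 1153 in V and 326, 602 and 638 in Q libraries, a change of -1.10 ± 0.15 (SE, adjusted p = 0.00202). The groups did not overlap, and Q replicate 1 was by far the lowest. The new12 antisense window read 1194, 1361 and 1402 in V and 521, 699.1 and 686 in Q libraries, and fell by 1.06 on the log2 scale (SE 0.07, adjusted p = 0.00038). H3K4me3 fell there as well, as it did on the mhf1 antisense window, which lost both H3K4me3 and H2A.Z. SPAC27F1.10-antisense-1 lost H2A.Z (-1.05 ± 0.06, SE, adjusted p = 0.000377) but gained H3K4me3. Without replicate 1, H2A.Z fell on 4 antisense windows, which held only 2 of the 7 (dal1 had -0.88 and new12 -0.996, and neither was called), without replicate 2 on 13 and without replicate 3 on 11.

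SPAPB15E9.02c-antisense-1 gained H2A.Z, from 999.6, 529 and 736 in V to 1682, 1610 and 1613 in Q libraries. The change was 1.16 ± 0.16 (SE, adjusted p = 0.00236), but H3 rose there by more. For H3 this window read 1049, 510.0 and 217 in V and 1635, 1730 and 1888 in Q libraries, a change of 1.84 ± 0.42 (SE, adjusted p = 0.0467). Relative to H3 its H2A.Z change was -0.68. The other H2A.Z increase was on the cox1101 antisense window, with 1.17 ± 0.19 (SE), whose V and Q libraries overlapped.

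H3 rose on 4 antisense windows (background 1.38%) and fell on 0 by limma, edgeR and DESeq2, where 0 of all 6580 windows fell. Besides SPAPB15E9.02c they were the antisense RNAs of mug106 (1.24 ± 0.29, SE, adjusted p = 0.0474), SPAC1834.13 (1.05 ± 0.23, SE, adjusted p = 0.0421) and SPBC713.13. The SPAC1834.13 antisense window read 893, 611 and 439 in V and 1156, 1321 and 1408 in Q libraries, so the V libraries were spread but did not reach the Q libraries. All adjusted p-values were close to the threshold, and the count was 1 without replicate 3, 1 by edgeR and 2 by DESeq2. The marks at H3K9 were called as changed on no antisense window. The count was 0 for H3K9ac (0% of all windows called in either direction), 0 for H3K9me2 (0.0152% up and 0.913% down) and 0 for H3K9me3 (0.0304% up and 0.639% down), by limma, edgeR and DESeq2. At an unadjusted p under 0.05 by limma there were 71, 38 and 226 antisense windows for the 3 marks. The replicates of these marks were unlike, so a change may have been missed. For H3K9me2, V replicate 1 had a rho of 0.35 with V replicates 2 and 3, which had 0.84 with each other. For H3K9me3 these values were 0.37 to 0.39 and 0.90, and H3K9ac Q replicate 1 stood apart as given above.

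Antisense and sense windows were then compared within each library, as the log2 ratio of their values, so that a difference between V and Q is a difference between their changes. For H3K4me3, the antisense window changed more upward than the sense window in 69 of 599 pairs and more downward in 55. Together this is 20.7% of the pairs, against 29.3% of 4535 window pairs tested in the whole table. Those are all pairs of ORF windows that overlap, with the antisense and sense pairs among them. The antisense and sense pairs overlapped by a median of 74.9% of the antisense window. The background pairs were not matched for the extent of overlap, so the shares do not compare like with like. For S5 there were 1 and 1 (background 3.61%), for S2 0 by limma in either direction (background 0.132%) and for H2A.Z 11 and 7 (background 7.89%). Across pairs, the changes of the antisense and the sense window had a Pearson r of 0.57 for H3K4me3 and 0.88 for S5, over 599 pairs that mostly share reads.

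The share of the antisense window that lay in the sense window went with the likeness of the change. For H3K4me3, Pearson r was 0.79 over the 94 pairs with the antisense window inside the sense window. It was 0.65 over the 472 other pairs that overlapped and -0.55 over the 33 that did not overlap. All points share the same libraries. In the 33, the antisense window gained H3K4me3 in 12 and lost it in 1, and the sense window gained it in 4 and lost it in 11. In 6 of these the antisense window gained and the sense window lost the mark. For S5, r was 0.39 over these 33 pairs.

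**Figure D3:**
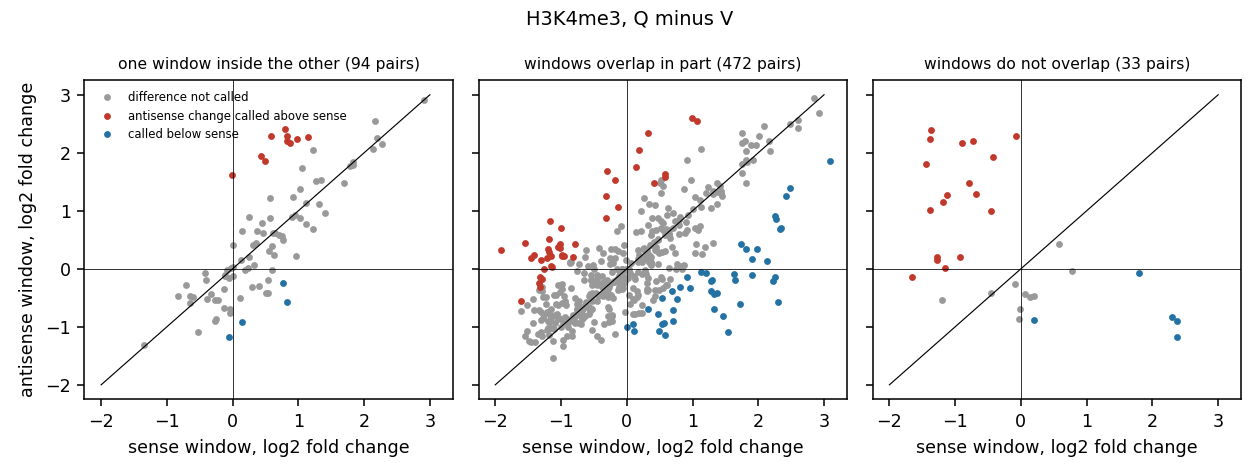
H3K4me3 log2 fold change (Q minus V) of the sense window (x) against the antisense window (y) for 599 pairs, in a panel for each class of overlap, coloured by the call on the difference. The panel titled as one window inside the other holds only pairs with the antisense window inside the sense window. These pairs follow the diagonal (r 0.79), and the 33 pairs without overlap run against it (r -0.55).

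The largest differences all came from pairs without overlap. The antisense window of tra2, which encodes a subunit of the NuA4 histone acetyltransferase, read 244.5, 118 and 92.0 for H3K4me3 in V and 851, 719 and 632 in Q libraries. The tra2 sense window read 379, 418 and 493 in V and 139.6, 163 and 196 in Q libraries. The antisense window thus rose in every Q library and the sense window fell in every Q library, with changes of 2.39 and -1.37. They differed by 3.76 ± 0.19 (SE, adjusted p = 0.00104).

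The antisense window of vps10, a vacuolar sorting receptor gene, read 645, 336 and 279.5 in V and 2259, 1897 and 1481 in Q libraries. The vps10 sense window went the other way, from 883, 768 and 738 to 226, 325 and 384. The difference was 3.61 ± 0.11 (SE, adjusted p = 0.001). The third of these was rav1, which encodes a regulator of vacuolar ATPase assembly, with 1.80 on the antisense and -1.44 on the sense window.

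In the opposite direction, the antisense window of vma13, which encodes a subunit of the vacuolar ATPase, read 1033, 1103 and 1094 in V and 386, 489 and 561 in Q libraries. The vma13 sense window read 67.2, 29.7 and 21.3 in V and 214, 174 and 172 in Q libraries. The antisense window lost the mark and the sense window gained it from a low level, a difference of -3.56 ± 0.23 (SE, adjusted p = 0.00127). The antisense windows of SPAC222.13c (-0.90) and kap114 (-0.83), a karyopherin gene, were not called alone, but their sense windows gained 2.37 and 2.30.

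For S5 the only pair with a larger antisense change was spt20, a subunit gene of the SAGA coactivator. Its antisense window read 1116, 1143 and 1254 in V and 1224, 1241 and 1200.3 in Q libraries, overlapping groups, while its sense window fell from 985, 841 and 871 to 440.5, 456 and 436. The difference was 1.08 ± 0.09 (SE, adjusted p = 0.00586), and 0 pairs were called in this direction without replicate 1. The only one in the other direction was SPCC1884.01 (-1.50 ± 0.27, SE, adjusted p = 0.0214). For H2A.Z the largest differences were on the antisense windows of SPAC637.04 (1.72), tra2 (1.69) and tad2 (1.54), and on those of SPAC458.02c (-1.24), pbi2 (-1.13) and sif3 (-1.07). Without replicate 1 the H2A.Z counts were 8 and 3.

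The structure of the sense gene divided the pairs. The deposited window of a gene with several exons covers only its end at the lower coordinate, the 5′ end on the plus strand and the 3′ end on the minus strand. With a single-exon sense gene, 15 of 331 pairs had a larger and 11 a smaller H3K4me3 change on the antisense window, with a median difference of -0.02. With several exons, 54 of 266 were larger and 44 smaller. Among these, 47 of the 133 with a sense gene on the plus strand were larger and 10 smaller (median 0.65), while 7 of the 133 on the minus strand were larger and 34 smaller (median -0.26). Window position and transcript cannot be told apart in these pairs.

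**Figure D4:**
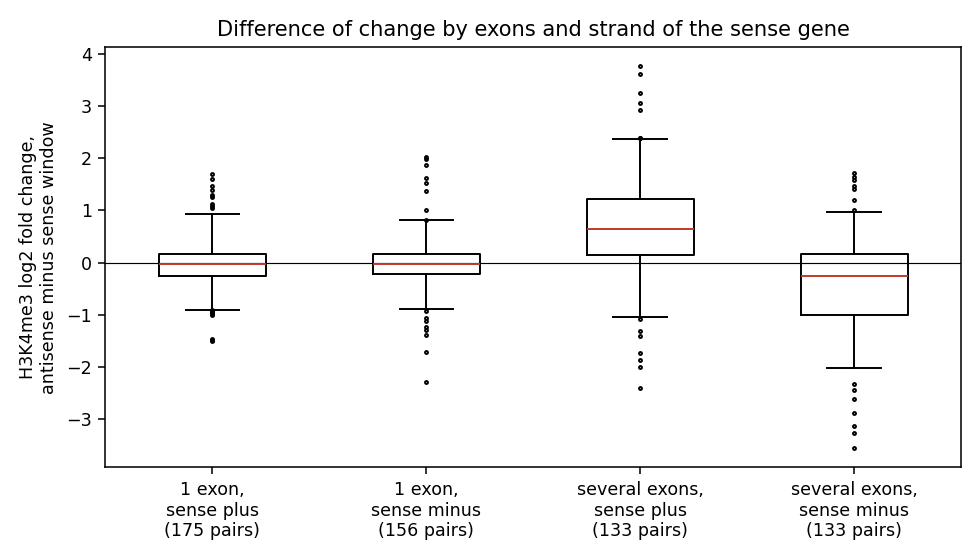
Difference of the H3K4me3 log2 fold change, antisense minus sense window, by number of exons and strand of the sense gene (line, median; box, quartiles; whiskers, 5th to 95th percentile). The medians are 0.65 and -0.26 for sense genes with several exons on the plus and minus strand, and near 0 for single-exon sense genes.

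Single-exon pairs, in which the sense window spans its whole gene, still held called differences, and the examples here were chosen after their values were seen. The antisense window of cwf4, a splicing factor gene, gained 1.86 ± 0.07 (SE, adjusted p = 0.001) more H3K4me3 than the sense window, and that of mas2 gained 1.98 ± 0.09 (SE) more. Both antisense RNAs run past the 3′ end of the sense gene. Within their sense genes lie the antisense RNAs of hrp1, a chromatin remodeller gene, rif1, a gene for a telomere and replication timing factor, and lid2, a gene for a JmjC-domain protein. They exceeded their sense windows by 1.70, 1.61 and 1.38. On the other side stood tra1, a subunit gene of the SAGA coactivator, whose antisense RNA runs past the 5′ end and had -0.82 where the sense window had 1.46.

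The position of the antisense RNA relative to its sense gene went with its H3K4me3 change. Antisense RNAs that ran past the sense 3′ end had a median change of 0.33 (29 up and 5 down of 94), and those within the gene 0.22 (38 up and 3 down of 124). Those past both ends had -0.09 (11 up and 5 down of 117), and those past the 5′ end had -0.32 (24 up and 21 down of 258). With single-exon sense genes alone the medians were 0.46, 0.58, -0.17 and -0.13 in the same order. H2A.Z had medians of -0.02, -0.03, -0.12 and -0.32 in the same order over all pairs. These medians are descriptions and were not tested, and an antisense window that reaches past a sense 5′ end takes in the promoter of the sense gene.

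A second set of deposited windows, 400 bp long and called TSS regions, was centred on the lower coordinate of each gene. For genes on the plus strand this is the 5′ end, and for genes on the minus strand it is the 3′ end. At the 5′ ends of plus-strand antisense RNAs, H3K4me3 rose in 125 of 293 windows (42.7%) and fell in 38 (13.0%), against 19.2% and 34.3% of all 3254 plus-strand windows tested. At the 5′ ends of plus-strand protein-coding genes the mark rose in 10.3% and fell in 41.2% of 2492. The median antisense 5′ window read 113, 108 and 107 in V and 172, 169 and 155 in Q libraries, all Q above all V. The median protein-coding 5′ window read 269, 288 and 278 in V and 136, 153 and 161 in Q libraries. The antisense 5′ ends were thus lower than the protein-coding ones in V cells and at or above them in 2 of the 3 Q replicates, while median changes were 0.44 and -0.90. Over all classes and both strands, the medians lay between 54.3 and 291 in V libraries but only between 136 and 194 in Q libraries. Low medians thus rose and high ones fell toward a narrower range. The part of this narrowing in the antisense increases was not tested. Other non-coding RNAs on the plus strand rose in 45.1% and fell in 13.2%. The sense gene of a plus-strand antisense RNA is mostly on the minus strand, so the antisense 5′ window lies toward the sense 3′ end. H3K4me3 rose in 49.7% of 286 windows at the 3′ ends of minus-strand sense genes. Where these windows share DNA, the antisense 5′ end and the sense 3′ end cannot be told apart.

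At the 3′ ends of minus-strand antisense RNAs, H3K4me3 rose in 92 of 316 windows (29.1%) and fell in 76 (24.1%), against 54.2% and 9.47% of all 3210 minus-strand windows. The median window read 141, 156 and 156 in V and 145, 149.7 and 148 in Q libraries, which overlap. At the 3′ ends of minus-strand protein-coding genes the mark rose in 56.8% and fell in 7.91% of 2516, with a median change of 1.37. Sense genes of antisense RNAs rose there in 49.7% of 286 (median 0.93), and protein-coding genes without an annotated antisense RNA in 57.7% of 2231 (median 1.42). Sense genes on the plus strand fell at their 5′ end in 37.5% of 307 (median -0.77), and genes without one in 41.7%. The 3′ windows of minus-strand antisense RNAs lie toward these sense 5′ ends, and over shared DNA they cannot be told apart either. Without replicate 1, the plus-strand antisense windows had 122 up and 44 down and the minus-strand ones 93 up and 64 down. Over both strands, H3K4me3 rose in 218 antisense TSS windows and fell in 114 (background 36.4% and 21.7%), S5 rose in 40 and fell in 5 (background 7.52% and 1.51%), and H2A.Z rose in 45 and fell in 10 (background 8.37% and 1.28%). Between TSS and ORF windows, 87 antisense RNAs were called up for H3K4me3 in both and 13 down in both, and 2 had opposite calls.

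**Figure D5:**
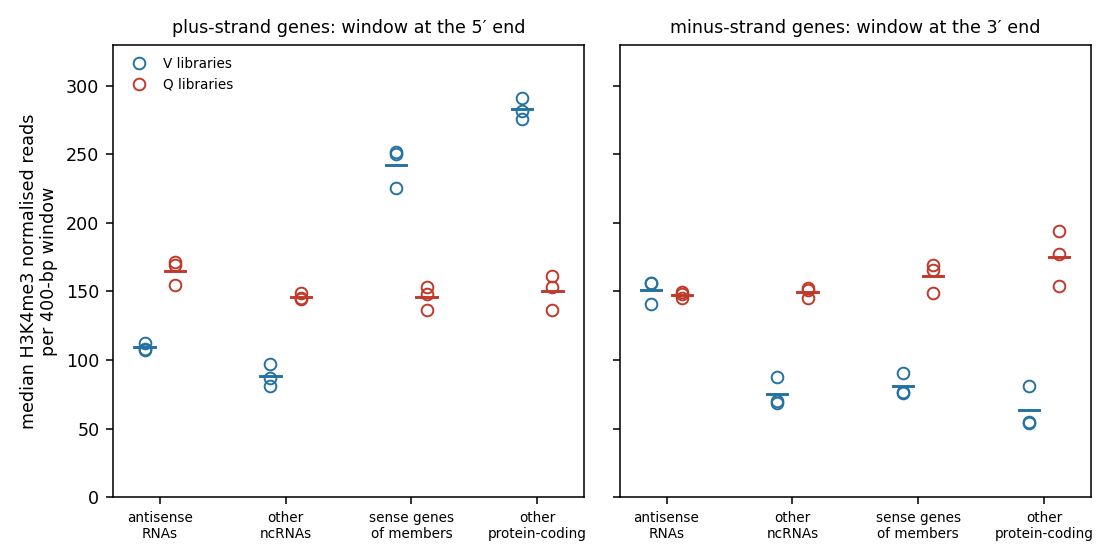
Median normalised H3K4me3 read count per 400-bp window in each library (circles; bars, mean of 3 libraries), for antisense RNAs, other non-coding RNAs, sense genes and other protein-coding genes, with 5′ ends on the left and 3′ ends on the right. At 5′ ends the antisense median is 107 to 113 in V and 155 to 172 in Q libraries, and that of other protein-coding genes is 275 to 291 in V and 136 to 162 in Q libraries.

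The study's table of genes of early quiescence, drawn from RNA levels of other samples, names 22 antisense RNAs, and all 22 had a window. H3K4me3 rose on 5 of them, the antisense RNAs of SPAC9E9.17c (1.48), psm1 (1.47), SPBC1652.02 (1.34), fta5 (1.31) and rad55 (1.07), and fell on 1, that of new12 (-1.14). Their median was -0.13, beside -0.08 for all antisense windows, and 5 of 22 is near the 17.3% of all antisense windows and the 19.4% of all windows that rose. psm1 encodes a cohesin subunit and rad55 a recombination mediator. S5 rose only on the SPAC9E9.17c antisense RNA among the 22 (1.00, adjusted p = 0.0254), and H2A.Z fell only on that of new12. The other 5 antibodies gave 0 calls by limma on this list.

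Genes whose products control antisense RNA were read in their own windows. The lists are small, and the counts stand beside a background of 19.4% up and 13.8% down for H3K4me3, 5.17% up for S5 and 1.47% down for H2A.Z, so nothing is read from them about a list as a whole. Of 14 genes of the RNA exosome and the TRAMP complex, which degrade nuclear RNA, H3K4me3 fell on 5, namely rrp41 (-1.40), rrp6 (-1.32), dis3 (-1.24), rrp46 (-1.24) and rrp42 (-1.06), and rose on rrp43 (1.38). S5 rose on rrp45 (1.15). Of 9 genes of Mmi1 and the MTREC complex, which hand RNA to the exosome, H3K4me3 rose on mmi1 (2.38), red1 (2.30) and erh1 (1.43) and fell on rmn1 (-1.23). Of 12 genes of RNA interference and H3K9 methylation, it rose on clr4 (1.20) and dcr1 (1.14) and fell on rdp1 (-1.63) and ago1 (-1.49), and H2A.Z fell on rdp1 and arb1. Of 9 genes of Set2, Clr6 complex II and the CHD remodellers, it rose on clr6 (2.20) and pst2 (1.34) and fell on hrp3 (-1.18). Of 6 genes of 5′ to 3′ decay and of termination, it fell on rhn1 (-1.61) and exo2 (-1.07). Among 5 genes of H2A.Z and its loading complex, H3K4me3 rose on msc1 (1.23), and H2A.Z fell on vps71 (-1.05). Where such a gene has several exons its window covers one end of the gene, as described for sense genes, and the part of window position in these changes was not tested.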

How the data were processed

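The submitters' processing notes name BWA 0.7.17, bcl2fastq 2.20.0.422, deepTools 3.3.2, DESeq2 and the SAMtools release 1.17. The signal deposited by the authors is the reads of a window over a size factor of the library. The notes also name the build ASM294v2. RefSeq ASM294v3 was matched by identifier and used for sequences, exons and ends only. The deposited log2 fold changes and p-values hold the authors' own comparisons and were not used.

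Each antibody was fitted alone with limma 3.58.1 (R 4.3.3), with a mean-variance trend and the replicate number as a block, on log2(value + 1). A window was tested where 3 or more of the 6 libraries reached a value of 10, which held for all 611 antisense windows with every antibody. P-values were adjusted by Benjamini-Hochberg over all windows of a table. Pairs were fitted on the log2 difference within a library over 4542 window pairs, which overlap or join an antisense RNA to its sense gene. The fits were also run on simulated counts, drawn independently for each library. These held no outlying and no nearly identical libraries, so they do not show how the fits behave with such libraries. The libraries are described as biological triplicates, and p-values measure the spread between these libraries. For S5 and S2 the fit took Q replicates 2 and 3 as separate libraries, although they differed by less than sampling noise. The SE and p-values of S5 and S2 may therefore understate the spread between Q samples. Changes are relative to the other windows of a table, since size factors remove a change common to all.

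Whole reads were recovered from the signal, and edgeR 4.0.16 and DESeq2 1.42.0 were run on them as alternatives. The others were library totals, no filter, a pseudocount of 5, change relative to H3, TSS windows, windows without overlap, merged libraries, no block and each replicate left out. Same-numbered V and Q libraries deviated together in every pair for H2A.Z only (correlations 0.516, 0.463 and 0.352), so the numbers pair the samples for that antibody alone, as a hint from the data. Named are up to 6 of the largest called increases and decreases of H3K4me3 and S5, up to 3 of other antibodies and of pair differences, their sense genes, the early quiescence antisense RNAs, and called genes of the lists. The members and lists were chosen with earlier results of these data known. The TSS table of S2 was not used beyond 1 alternative, because its V replicate 3 column equals that of H3K9me2 in 6612 of 6613 windows.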

Additional observations from a re-analysis of the deposited data

How the results depend on the processing

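The fit with no replicate block gave the same counts of antisense calls for H3K4me3 (106 and 35), S5 (19 and 1), H2A.Z (2 and 7), H3 (4) and all pairs (for H3K4me3, 69 and 55), and 5 against 6 for S2. Pairing changed no other count. Counts below are calls among antisense windows. Among windows without overlap of the sense window, of which there are only 33, H3K4me3 rose on 12 and fell on 1, and S5 (up or down), S2, H2A.Z (up or down) and H3 had 0. In the TSS windows, H3K4me3 rose on 218 and fell on 114, S5 rose on 40 and fell on 5, H2A.Z rose on 45, H3K9me3 on 1, H3 on 10 and S2 on 0. Relative to H3, S5 fell on 18, S2 rose on 0 and fell on 4, H2A.Z rose on 4 and fell on 11, H3K9ac rose on 1 and fell on 5, and H3K9me3 fell on 2. With library totals H3K4me3 fell on 54. With Q replicates 2 and 3 as 1 library S2 rose on 0. DESeq2 called 1 H2A.Z increase and 2 H3 increases, edgeR 1 H3 increase, and with no filter H3 rose on 0. The causes were not tested.

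Leaving out each replicate gave 102 to 109 H3K4me3 increases, 24 to 47 decreases, 13 to 29 S5 increases, 1 to 3 S5 decreases, 0 to 13 S2 increases, 2 to 5 H2A.Z increases, 4 to 13 H2A.Z decreases, 0 to 1 H3K9ac increases, 0 to 1 H3K9ac decreases, 0 to 1 H3K9me2 increases and 1 to 5 H3 increases. In pairs it gave 0 to 1 S5 increases, 8 to 15 H2A.Z increases and 3 to 9 H2A.Z decreases. Median log2 changes ranged from 0.0569 to 0.0673 for S5, 0.0109 to 0.0238 for S2 and -0.0387 to -0.0344 for H3.

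Pairs whose sense gene has 1 exon, chosen after seeing the data like the TSS counts by strand without replicate 1, gave 15 and 11 H3K4me3, 0 and 0 S5 and 0 and 1 H2A.Z differences (up and down). A pseudocount of 5 gave 4 H2A.Z decreases in pairs.

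The median log2 change of antisense windows moved, with library totals, to -0.17 for H3K4me3, 0.10 for S5, 0.0327 for S2, -0.19 for H2A.Z, -0.0861 for H3K9me3 and -0.0590 for H3. Relative to H3 it was 0.0912 for S5, 0.0713 for S2 and -0.13 for H2A.Z. In TSS windows it was 0.18 for H3K4me3, 0.0574 for S5 and -0.0768 for H3. Without overlap it was 0.15 for H3K4me3, 0.11 for S5, 0.0666 for S2, -0.00183 for H2A.Z, 0.0355 for H3K9ac, 0.0279 for H3K9me2, 0.21 for H3K9me3 and -0.0710 for H3.

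The median log2 ratio of antisense to sense level per kb, in V and Q cells over all pairs, ranged over the antibodies from -0.0297 (S2, V) to -0.00551 (H3K9ac, Q). Relative to H3 it was -0.00084 and 0.00015 for H3K4me3, -0.011 and -0.00271 for S5, -0.0149 and -0.00042 for S2, 0.00717 and 0.0033 for H2A.Z, 0.00465 and -0.00141 for H3K9ac, 0.00187 and -0.000304 for H3K9me2, -0.00022 and 0.00022 for H3K9me3, V before Q. Over pairs without overlap it was -0.751 and 0.117 for H3K4me3, 0.15 and 0.232 for S5, 0.387 and 0.242 for S2, -0.499 and 0.0357 for H2A.Z, -0.201 and -0.0446 for H3K9ac, 0.176 and 0.224 for H3K9me2, 0.0731 and 0.419 for H3K9me3, 0.304 and 0.238 for H3, V before Q. With a pseudocount of 5 it was -0.0139 (V) for H3K9me2, -0.0131 (V) for H3K9me3, -0.00767 (Q) for H3.
Of 235 single values of named windows under the alternatives, 207 kept direction and side of the threshold, 26 fell short of it and 2 reversed. The 2 were H3K4me3 on the ucp3 antisense RNA, 0.62 in the TSS window, and H2A.Z on the SPAPB15E9.02c antisense RNA, -0.68 relative to H3. Depth limits the low windows most, such as cox1101.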
